A study of Eragrostis tef with 16 samples.

Results

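The 41 genes described here belong to the small RNA pathways and the chromatin silencing machinery of tef (Eragrostis tef), a cereal whose genome holds an A and a B subgenome. They are all genes with values, out of 5824, whose deposited description names argonaute, Dicer, RNA-dependent RNA polymerase, a cytosine-5 DNA methyltransferase, a histone-lysine methyltransferase, a histone deacetylase, a histone acetyltransferase, a lysine-specific demethylase or a chromatin remodelling protein. The rule used descriptions and no measured value, though the choice was made with earlier results of these data known. It gave 9 Argonautes, 6 Dicers, 2 RNA-dependent RNA polymerases, 3 DNA methyltransferases, 10 histone methyltransferases, 3 demethylases, 1 deacetylase, 2 acetyltransferases and 5 chromatin remodelling genes. No gene with values was described as SUPPRESSOR OF GENE SILENCING. The best hit of every member was a Setaria (foxtail millet) protein, at 77.2% to 92.9% identity, so the names and roles below are those of other species. By the letter in the gene ID, 17 members lie on the A and 24 on the B subgenome, and 25 of the 41 share their description with another member.

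Tef was grown in hydroponic solution at optimum or low calcium, and root and shoot were sampled, with 4 libraries in each of the 4 groups: optimum-calcium root, low-calcium root, optimum-calcium shoot and low-calcium shoot. The labels give no cultivar, plant age, calcium concentration or length of treatment, and do not say whether the 4 libraries of a group came from separate plants, so the p-values measure the spread between these samples, which may be technical. The genes were deposited as log2 of scaled reads plus 1 under the header of target gene IDs. The sources used here do not say whether mRNA or small RNA was sequenced for these values. A gene is said to rise or fall where its reads passed the test in that direction.

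In plants, Dicer enzymes cut double-stranded RNA into small RNAs, and Argonaute proteins carry those small RNAs to matching transcripts or loci. One branch, built on DCL1 and AGO1, makes and uses microRNAs. Another, RNA-directed DNA methylation, uses RNA-dependent RNA polymerase 2, DCL3 and AGO4 to guide DNA methyltransferases to transposons and repeats, where histone marks and chromatin remodelling keep the DNA silent. In Arabidopsis the AGO1 and DCL1 transcripts are themselves microRNA targets.

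Recovered gene reads numbered 2.80 ± 0.500 Mreads (megareads) per library (SD, n = 4) in optimum-calcium root, 1.71 ± 0.360 Mreads in low-calcium root, 2.70 ± 0.104 Mreads in optimum-calcium shoot and 1.96 ± 0.158 Mreads in low-calcium shoot, so the low-calcium values rest on fewer reads. The 41 members took 0.784% ± 0.127, 0.655% ± 0.118, 0.690% ± 0.0547 and 0.558% ± 0.0892 of these reads in the same order (SD, n = 4). They held 251859 reads over the 16 libraries, from 904 to 37178 per gene, and none was at 0 in any library. Both argonaute 1B copies of chromosome 7 together held 29.4% of the members' reads. The title of low-calcium shoot replicate 4 names both tissues. The 4 measured nicotianamine synthases, taken as root markers, had a summed log2 level of 10.7 in it against 9.89 to 12.1 in the other shoot libraries and 12.3 to 15.8 in root. Both nicotianamine synthase 3 copies did not pass between organs under low calcium (limma adjusted p 0.122 and 0.669). The nicotianamine synthase 2 copies had 6.40 and 5.32 in low-calcium shoot replicate 4, against at least 11.3 and 10.5 in root. The 3 measured chlorophyll a-b binding proteins summed to 16.9 in that replicate, the lowest shoot value, against at most 10.5 in root. That sum rests on both protein 1 copies, at 15.6 and 16.1 in the replicate. Protein 7 (Et_2B_022145) had 6.61 in it, against up to 6.70 in root, and did not pass between organs under low calcium (limma adjusted p 0.0624). No Rubisco small subunit or casparian strip membrane protein had values. The titles also number the low-calcium libraries ahead of the optimum-calcium ones, so an effect of library order and the effect of calcium cannot be told apart.

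In shoot under low calcium, 2 of 5 argonaute 1B genes, both Dicer 1 copies and 1 of 2 Dicer 4 copies fell, while both argonaute 4A copies, RNA-dependent RNA polymerase 2 and the A copy of DNA methyltransferase 1B rose. The 3 Dicer falls did not pass with scaling to the total of gene reads or with voom. The rise of RNA-dependent RNA polymerase 2 did not pass without low-calcium shoot replicate 4 (limma adjusted p 0.0946) or with shoot libraries fitted alone (limma adjusted p 0.0931). By limma with Benjamini-Hochberg adjustment over all 5824 genes at a threshold of 0.05, 4 of the 41 members rose, 11 fell and 26 did not pass. Among all genes 39.4% passed in shoot, 18.5% higher and 20.9% lower. Of the members 36.6% passed, 9.76% higher and 26.8% lower, and their median log2 change was -0.27 against -0.12 over all genes. In root no member passed, where 8.33% of all genes did, 5.32% higher and 3% lower. The number that fell in shoot rests on the scaling. It was 11 as deposited, 8 after rescaling by median-ratio size factors and 4 when each library was scaled to its total of gene reads. The rises numbered 4, 6 and 5. Over all 5824 genes the falls numbered 1217, 830 and 476 and the rises 1075, 1213 and 1278 in the same order, so the shift was not particular to the members. The median change of all genes in shoot moved from -0.12 to 0.00 and 0.07 under these scalings. Without low-calcium shoot replicate 2 there were 6 falls, and without replicate 4 there were 7. Since whole shoots and roots were sampled, fewer cells of a type and less RNA per cell cannot be told apart.

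**Figure D1:**
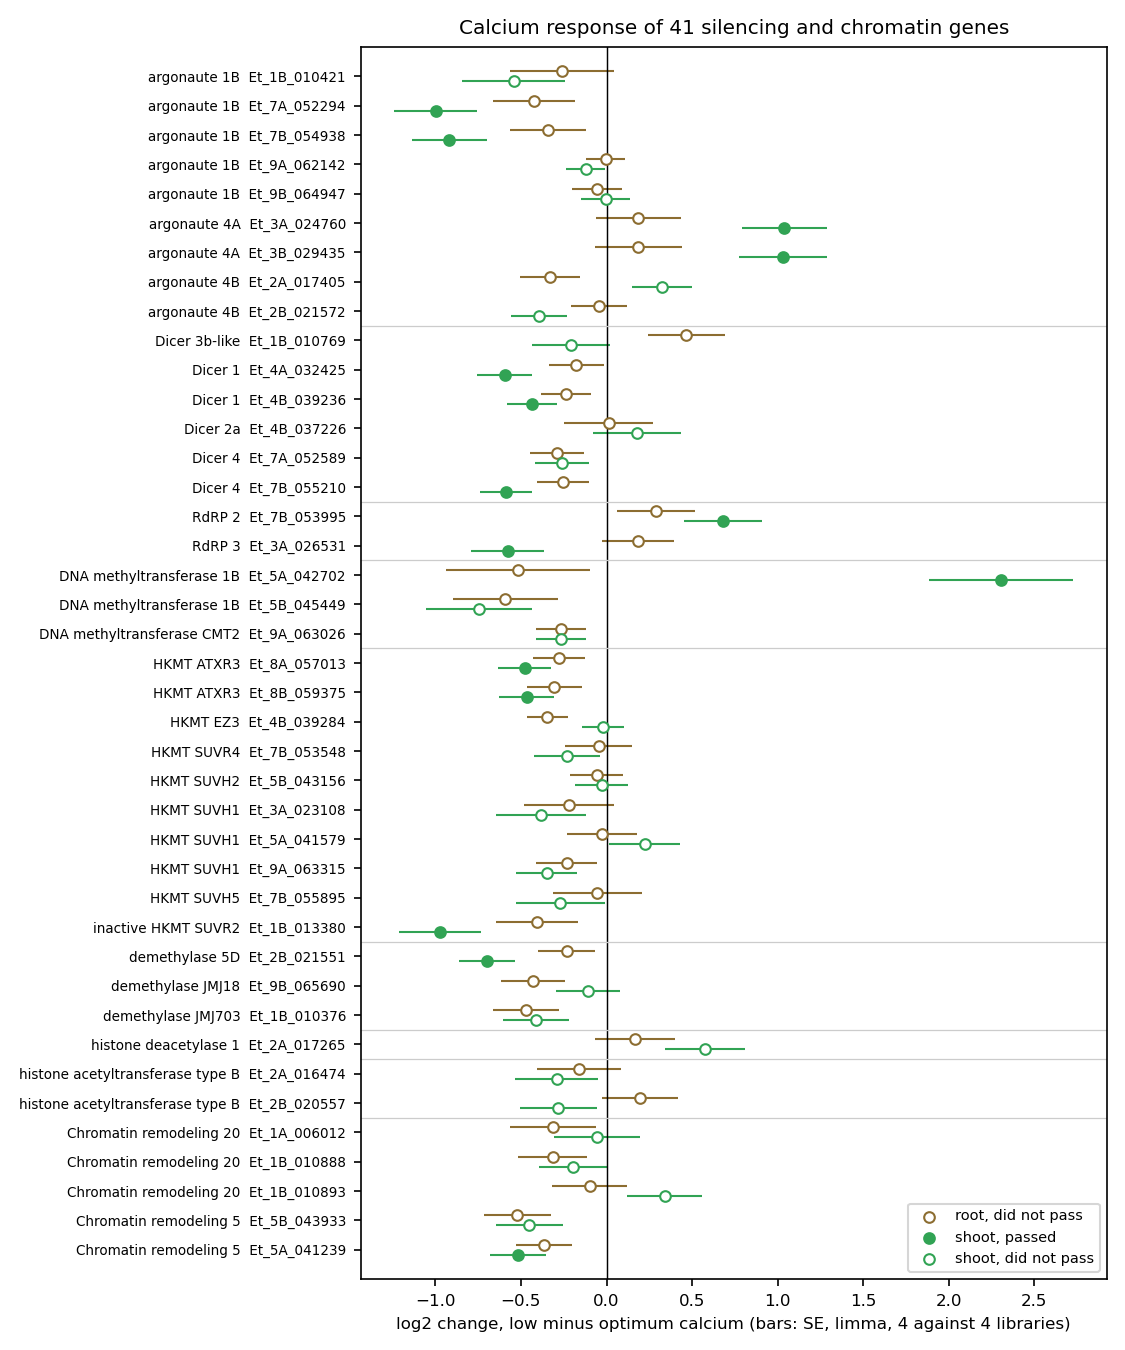
Log2 change, low minus optimum calcium, of each of the 41 members in root and in shoot, with its standard error from limma (4 against 4 libraries), grouped by class; filled points passed at an adjusted p of 0.05. In shoot, 4 filled points lie above 0 and 11 below; no root point is filled.

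Of the 9 Argonautes, 2 argonaute 1B genes fell and both argonaute 4A genes rose in shoot, and the others did not pass. AGO1 proteins carry microRNAs and silence transcripts after transcription. The argonaute 1B copy on chromosome 7A (Et_7A_052294) had log2 values of 11.21, 11.19, 11.54 and 11.30 in optimum-calcium shoot and 10.59, 9.82, 10.96 and 9.89 in low-calcium shoot. Its copy on 7B (Et_7B_054938) had 11.68, 11.71, 11.99 and 11.97 against 11.14, 10.59, 11.56 and 10.39. In both genes every low-calcium library lay below every optimum library, and low-calcium replicate 3 was the closest to the optimum group. Et_7A_052294 fell by 1.00 (SE 0.24, limma adjusted p 0.00497) and Et_7B_054938 fell by 0.92 (SE 0.22, limma adjusted p 0.00506) on the log2 scale. Both falls passed under each of the scalings and with each library left out. The argonaute 1B copies on chromosome 9 gave changes of -0.12 (Et_9A_062142, limma adjusted p 0.413) and -0.01 (Et_9B_064947, limma adjusted p 0.978), with 95% intervals of -0.36 to 0.12 and -0.32 to 0.31. The copy on 1B (Et_1B_010421) changed by -0.54 (SE 0.30, limma adjusted p 0.161), although its libraries did not overlap between groups. Whether the responses of these argonaute 1B genes differ from each other was not tested.

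AGO4 proteins carry the small RNAs that direct DNA methylation. Argonaute 4A on chromosome 3A (Et_3A_024760) had log2 values of 4.82, 5.57, 5.70 and 5.45 in optimum-calcium shoot and 6.28, 6.10, 6.16 and 7.15 in low-calcium shoot. Its B copy (Et_3B_029435) had 5.45, 5.34, 5.46 and 5.86 against 6.66, 5.92, 6.39 and 7.28. The groups did not overlap for either copy, and low-calcium replicate 4 was the highest library in both. The A copy rose by 1.04 (SE 0.25, limma adjusted p 0.00479) and the B copy by 1.03 (SE 0.26, limma adjusted p 0.00596), changes of 2.06-fold and 2.05-fold. Without replicate 4 the rises were 0.80 (limma adjusted p 0.0172) and 0.79 (limma adjusted p 0.0229). In root the same copies changed by 0.18 and 0.19 (limma adjusted p 0.641 and 0.649). The difference between their root and shoot responses was -0.86 and -0.85, and neither passed (limma adjusted p 0.154 and 0.171). Of argonaute 4B, the A copy (Et_2A_017405) changed by 0.32 (limma adjusted p 0.15) and the B copy (Et_2B_021572) by -0.39 (limma adjusted p 0.0658) in shoot.

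Dicer genes fell or did not pass in shoot. DCL1 cuts microRNA precursors. Its A copy (Et_4A_032425) had log2 values of 9.85, 9.83, 9.84 and 9.50 in optimum-calcium shoot and 9.28, 8.84, 9.60 and 8.90 in low-calcium shoot. The B copy (Et_4B_039236) had 9.68, 9.46, 9.66 and 9.35 against 9.02, 8.96, 9.48 and 8.95. For each copy a single low-calcium library, replicate 3, reached into the optimum range. The A copy fell by 0.60 (SE 0.16, limma adjusted p 0.00904) and the B copy by 0.44 (SE 0.15, limma adjusted p 0.0264). With scaling to the total these were -0.41 (limma adjusted p 0.0602) and -0.25 (limma adjusted p 0.2), which did not pass. The B copy also did not pass without low-calcium shoot replicate 1, 2 or 4 or without optimum-calcium shoot replicate 1 or 3 (limma adjusted p up to 0.0782).

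DCL4 makes 21 nt secondary small interfering RNAs. Its B copy (Et_7B_055210) had 7.55, 7.57, 7.78 and 7.72 in optimum-calcium shoot and 7.27, 6.86, 7.25 and 6.89 in low-calcium shoot, with no overlap. It fell by 0.59 (SE 0.15, limma adjusted p 0.00688), a fall that did not pass with scaling to the total (limma adjusted p 0.0821). The A copy (Et_7A_052589) changed by -0.26 (limma adjusted p 0.19). The Dicer 3b-like gene (Et_1B_010769), of a family that makes 24 nt small RNAs, changed by -0.21 in shoot (limma adjusted p 0.48) and by 0.47 in root (limma adjusted p 0.187). Dicer 2a (Et_4B_037226) changed by 0.18 in shoot and 0.01 in root, and neither passed (limma adjusted p 0.602 and 0.982).

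RNA-dependent RNA polymerases copy single-stranded RNA into the double strands that Dicers cut. RNA-dependent RNA polymerase 2 (Et_7B_053995), the enzyme of the DNA methylation branch, had log2 values of 6.34, 6.87, 6.51 and 7.22 in optimum-calcium shoot and 7.17, 7.17, 7.14 and 8.17 in low-calcium shoot. The groups overlapped, and low-calcium replicate 4 stood apart from its other three libraries. The gene rose by 0.68 (SE 0.23, limma adjusted p 0.0266), and by 0.43 without replicate 4 (limma adjusted p 0.0946), which did not pass. Leaving out optimum-calcium shoot replicate 1 or 3 (limma adjusted p 0.09 and 0.0682) or fitting shoot libraries alone (limma adjusted p 0.0931) also ended the call. RNA-dependent RNA polymerase 3 (Et_3A_026531) had 8.62, 8.57, 8.61 and 8.97 against 8.04, 7.74, 8.31 and 8.37, with no overlap. It fell by 0.58 (SE 0.21, limma adjusted p 0.0416), and this call was lost in 9 of 16 fits that left out a library (limma adjusted p up to 0.131) and with both other scalings.

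**Figure D2:**
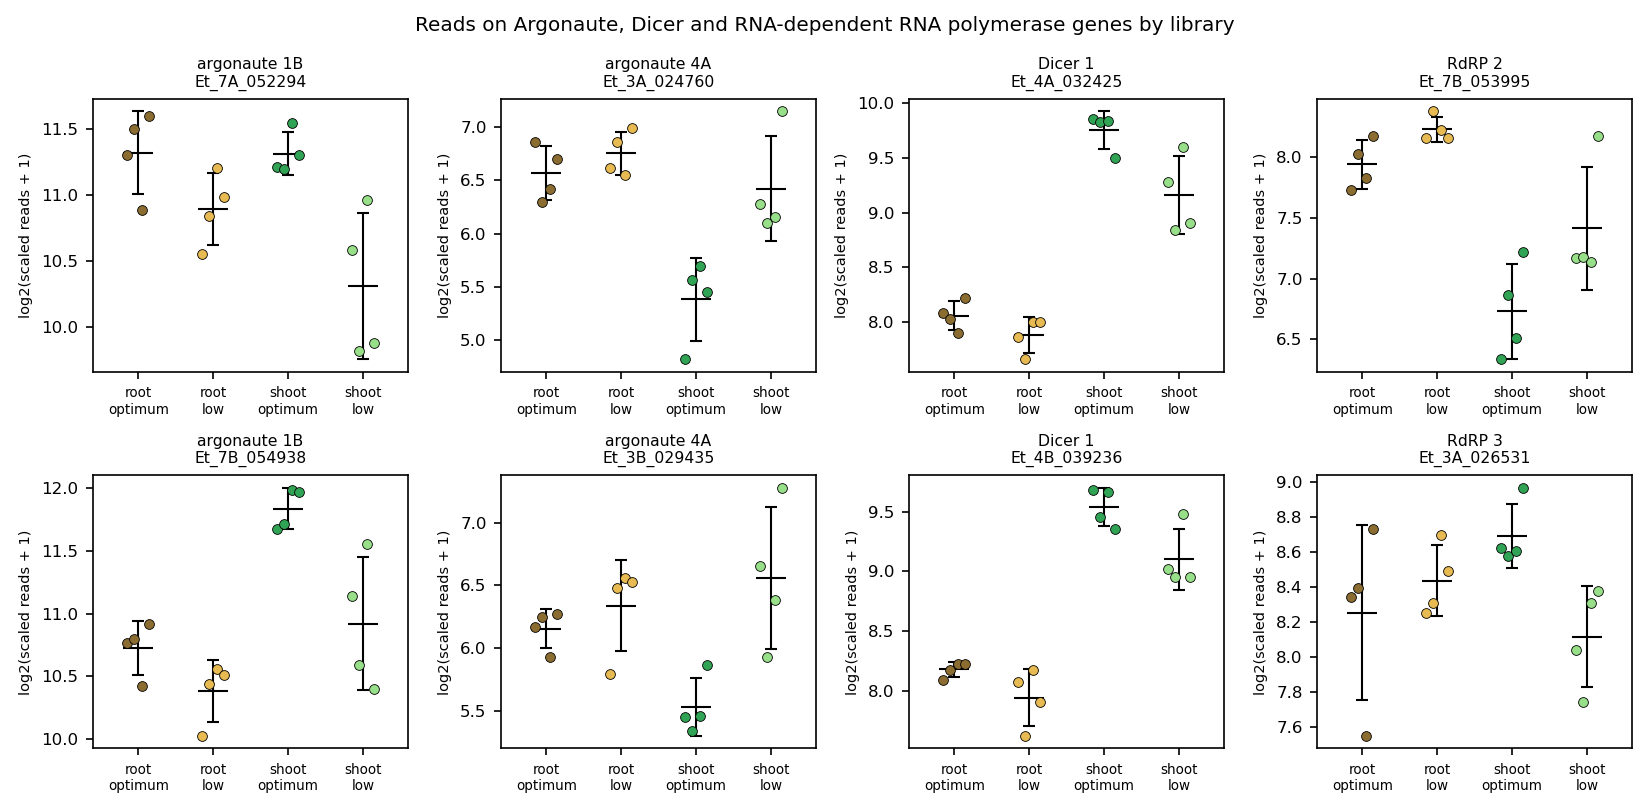
Log2(scaled reads + 1) of 8 Argonaute, Dicer and RNA-dependent RNA polymerase genes in each of the 16 libraries (points), with group mean and SD (bars, n = 4); each panel has its own vertical axis, which does not start at 0. In shoot both argonaute 1B copies of chromosome 7 and both Dicer 1 copies are lower under low calcium and both argonaute 4A copies higher; for RNA-dependent RNA polymerase 2 a low-calcium shoot library at 8.17 lies above the other three at 7.14 to 7.17.

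The largest change among the members was that of DNA methyltransferase 1B, a MET1-type enzyme that keeps methylation at CG sites after DNA replication. Its A copy (Et_5A_042702) had log2 values of 1.56, 2.31, 2.13 and 1.83 in optimum-calcium shoot and 4.52, 4.08, 2.82 and 5.64 in low-calcium shoot. The corresponding reads were 2, 4, 3 and 3 against 20, 12, 5 and 44, so the value rests on 12 reads in the optimum group and 81 in the low-calcium group. Every low-calcium library was higher than every optimum library, and the low-calcium libraries spread widely. The gene rose by 2.31 (SE 0.42, 95% interval 1.42 to 3.20, limma adjusted p 7.45e-04). Per gene read the summed counts gave a ratio of 9.28 (95% exact interval 5.03 to 18.7). This interval pools the libraries of a group, so it holds counting error only and leaves out the spread between libraries. The reads carry no known molecular identifiers, so duplicates were not told apart and the counting error may be larger. Without low-calcium shoot replicate 4 the rise was 1.85 (limma adjusted p 0.00157).

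In root the same copy had 7.15, 6.81, 7.05 and 6.64 at optimum and 6.43, 6.44, 6.42 and 6.28 at low calcium. All low-calcium root libraries were below the optimum ones, and the change of -0.52 did not pass (SE 0.42, limma adjusted p 0.42). This SE is the same in root and shoot, because the fit shares 1 spread per gene over the 4 groups. The SDs at optimum and low calcium were 0.23 and 0.075 in root and 0.33 and 1.16 in shoot (n = 4). With the libraries of each organ fitted alone, the shoot rise passed and the root change did not. The difference between the root and shoot responses was -2.83 (SE 0.59, limma adjusted p 0.00894). It was the 1 member of 41 for which this difference passed, where 7.40% of all genes did, 1.82% with the root response the more positive and 5.58% with the shoot response, and it passed with each library left out (limma adjusted p at most 0.0241). The B copy (Et_5B_045449) had 3.77, 4.51, 4.34 and 5.17 in optimum-calcium shoot and 3.58, 3.54, 3.85 and 3.84 in low-calcium shoot, and its change of -0.74 did not pass (SE 0.31, limma adjusted p 0.0651). The third DNA methyltransferase, CMT2 (Et_9A_063026), which in Arabidopsis methylates cytosines outside CG sites in transposons, changed by -0.27 in shoot (limma adjusted p 0.149) and -0.27 in root (limma adjusted p 0.232).

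Of the 10 histone methyltransferases, 3 fell in shoot and none rose. SUVR2, described as probably inactive and needed for transcriptional silencing in Arabidopsis (Et_1B_013380), had 8.92, 8.72, 8.65 and 8.33 in optimum-calcium shoot against 7.75, 7.28, 8.002 and 7.71 in low-calcium shoot. The groups were fully separate. It fell by 0.97 (SE 0.24, limma adjusted p 0.00556). The 2 copies of ATXR3, an enzyme that in Arabidopsis methylates lysine 4 of histone H3, a mark of active genes, fell by 0.48 (Et_8A_057013, limma adjusted p 0.0221) and 0.47 (Et_8B_059375, limma adjusted p 0.0319). The calls of both copies were lost with scaling to the total (limma adjusted p 0.201 and 0.267) and when low-calcium shoot replicate 2 or 4 or optimum-calcium shoot replicate 1 was left out. The other 7 changed by -0.38 to 0.22 in shoot. Among them EZ3 (Et_4B_039284), of the Polycomb family that methylates lysine 27 of histone H3, changed by -0.02 (limma adjusted p 0.909).

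Of the 3 demethylases, 5D (Et_2B_021551) had 10.02, 9.80, 9.96 and 9.96 in optimum-calcium shoot against 9.31, 9.12, 9.61 and 8.90 in low-calcium shoot, again without overlap. It fell by 0.70 (SE 0.17, limma adjusted p 0.00468). JMJ703 (Et_1B_010376), which in rice removes methyl groups from lysine 4 of histone H3, changed by -0.41 (limma adjusted p 0.0989). Histone deacetylase 1 (Et_2A_017265) had 5.09, 5.51, 4.87 and 5.42 against 5.34, 5.83, 5.56 and 6.47. These overlapped, and the change of 0.58 did not pass on the deposited scale (SE 0.23, limma adjusted p 0.0597), while it did with both other scalings. The 2 type B histone acetyltransferases, which acetylate newly made histones, changed by -0.29 (Et_2A_016474) and -0.28 (Et_2B_020557) without passing (limma adjusted p 0.352 and 0.326). Of the 5 remodelling genes 1 fell: the A copy of CHROMATIN REMODELING 5 (Et_5A_041239) had 9.87, 9.86, 9.86 and 10.09 against 9.51, 9.10, 9.74 and 9.27. It fell by 0.52 (SE 0.16, limma adjusted p 0.0204), and this call was lost with scaling to the total (limma adjusted p 0.191) and without low-calcium shoot replicate 2 or 4 or optimum-calcium shoot replicate 4. The B copy (Et_5B_043933) changed by -0.45 (limma adjusted p 0.0759).

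Counted by separation of libraries, 11 members had every low-calcium shoot library below every optimum one and 3 had every one above. Over all genes these shares were 17% and 14.1%. Of the 15 members called in shoot, 7 kept their call under every setting of scaling, offset, filter, block, tissues in the fit and test tried and with each library left out, at the adjusted p alone. They were both argonaute 4A copies, both argonaute 1B copies of chromosome 7, the A copy of DNA methyltransferase 1B, SUVR2 and demethylase 5D. A further demand for a log2 change of at least 1 removed all 11 falls.

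In root, 33 of the 41 members (80.5%) had a change below 0, as did 52.5% of all genes, with a median of -0.23 against -0.03 for all genes, and none passed the limma test after Benjamini-Hochberg adjustment. At an unadjusted p under 0.05 there were 5, or 12.2% of the members against 28.3% of all genes, and voom on the recovered reads called 0. The changes ran from -0.59, in the B copy of DNA methyltransferase 1B, to 0.47, in the Dicer 3b-like gene. Demethylase JMJ18 (Et_9B_065690) had 7.11, 7.18, 7.09 and 7.20 in optimum-calcium root and 6.66, 6.68, 6.70 and 6.81 in low-calcium root. It and the A copy of DNA methyltransferase 1B were the 2 members whose low-calcium root libraries all lay below the optimum ones, a pattern found in 9.53% of all genes. The opposite pattern was found in no member and in 12% of all genes. JMJ18 changed by -0.43 (SE 0.19, limma adjusted p 0.147), and passed when root libraries were fitted alone (limma adjusted p 0.0418). With low-calcium root replicate 3 left out, EZ3 and the B copy of CHROMATIN REMODELING 5 passed, and without optimum-calcium root replicate 3, EZ3 did.

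Copies from the A and B subgenomes were compared directly in 7 pairs, defined by a best hit shared by exactly 1 A and 1 B gene of the same chromosome number. The A minus B difference within a library was fitted by limma over all 1392 such pairs of the table. In shoot 2 of the 7 pairs responded differently, where 13.2% of all pairs did, and in root none, where 1.51% did. For DNA methyltransferase 1B the A minus B difference was -2.21, -2.20, -2.20 and -3.34 in optimum-calcium shoot and 0.94, 0.54, -1.02 and 1.80 in low-calcium shoot. The response of the A copy exceeded that of the B copy by 3.05 (SE 0.50, limma adjusted p 4.48e-04). In root the same difference of responses was 0.07 (SE 0.50, limma adjusted p 0.982).

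For argonaute 4B the A minus B difference was -1.32, -1.36, -1.19 and -1.22 in optimum-calcium shoot and -0.43, -0.80, -0.74 and -0.24 in low-calcium shoot, with no overlap. The responses differed by 0.72 (SE 0.13, limma adjusted p 9.08e-04), although neither copy passed on its own. In root the difference was -0.29 (limma adjusted p 0.339). The pairs of argonaute 4A, Dicer 1, ATXR3 and the type B acetyltransferase gave differences of -0.16 to 0.01 in shoot, and that of Dicer 4 gave 0.33 (limma adjusted p 0.217). Reads of near-identical copies can be divided between them in ways that the deposited values do not show, which touches each of these pairs.

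**Figure D3:**
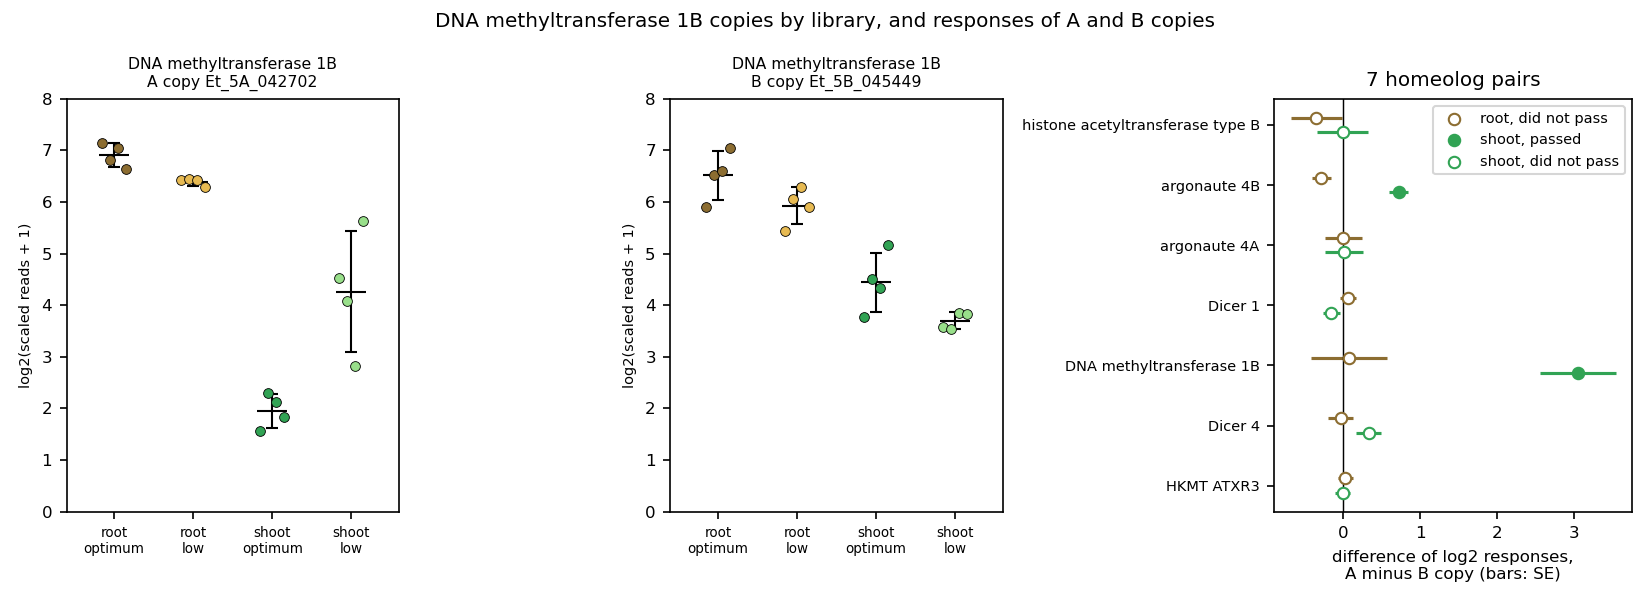
Left and middle, log2(scaled reads + 1) of the A and the B copy of DNA methyltransferase 1B in each library (points), with group mean and SD (bars, n = 4); right, A minus B difference of the log2 calcium responses of 7 homeolog pairs with its standard error (limma), filled where the adjusted p was under 0.05. In shoot the A copy is higher under low calcium while the B copy changed by -0.74; the filled points are DNA methyltransferase 1B at 3.05 and argonaute 4B at 0.72.

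More members passed between organs than between calcium levels, and the same held over all genes. At optimum calcium 16 members were higher in root and 10 higher in shoot by limma after Benjamini-Hochberg adjustment. These were 63.4% of the members, where 66.6% of all genes passed, 32.9% higher in root and 33.7% higher in shoot. Under low calcium 11 were higher in root and 7 in shoot. That was 43.9% of the members, where 56.9% of all genes passed, 28.4% in each direction. Scaling to the total moved the median root minus shoot value of all genes from -0.04 to 0.41 at optimum calcium and from 0.01 to 0.27 under low calcium. It moved the members' split to 22 and 6 and to 16 and 2. The split of all genes under that scaling was 2789 and 1348 at optimum calcium and 2238 and 1299 under low calcium. Without low-calcium root replicate 3, 6 members were higher in root under low calcium. There were 7 without low-calcium root replicate 4 or low-calcium shoot replicate 2. Without low-calcium root replicate 2 or low-calcium shoot replicate 3, 4 were higher in shoot.

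Both copies of DNA methyltransferase 1B were higher in root. The A copy (Et_5A_042702) was 4.96 higher at optimum calcium (SE 0.42, limma adjusted p 2.27e-08) and 2.13 higher under low calcium (limma adjusted p 3.68e-04). The B copy (Et_5B_045449) was 2.07 and 2.22 higher (limma adjusted p 1.60e-05 and 1.00e-05). RNA-dependent RNA polymerase 2 was 1.21 and 0.81 higher in root and histone deacetylase 1 was 1.24 and 0.83 higher. A gene described as CHROMATIN REMODELING 20 (Et_1B_010893) was 1.13 and 0.70 higher. These genes passed by limma at both calcium levels. Another CHROMATIN REMODELING 20 gene (Et_1A_006012) was 0.61 higher at optimum calcium, a call lost in 6 of 16 fits that left out a library. It did not pass under low calcium, where 1 of the 5 remodelling genes did. The A copy of argonaute 4A was 1.19 higher in root at optimum calcium (limma adjusted p 4.71e-04), and its root minus shoot value of 0.33 under low calcium did not pass (limma adjusted p 0.271). Argonaute 1B on chromosome 1B (Et_1B_010421) was 1.06 higher in root at optimum and 1.34 higher under low calcium.

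Dicer 1 stood at the other end. Its A copy (Et_4A_032425) lay between 7.90 and 8.22 in optimum-calcium root and between 9.50 and 9.85 in optimum-calcium shoot, and was 1.70 lower in root (root minus shoot -1.70, SE 0.16, limma adjusted p 8.30e-08). Under low calcium the value was -1.28 (limma adjusted p 3.20e-06). The B copy (Et_4B_039236) had -1.36 and -1.16. SUVR2 had -1.29 and -0.72, argonaute 1B on 7B (Et_7B_054938) -1.11 and -0.54, demethylase 5D -0.995 and -0.53, and the B copy of Dicer 4 -0.91 and -0.58, each passing by limma at both levels. Under low calcium, SUVR2, 5D, Et_7B_054938 and both Dicer 4 copies did not pass with scaling to the total, where the Dicer 1 copies did. The low-calcium call of Et_7B_054938 (limma adjusted p 0.0487) was also lost with a replicate block (limma adjusted p 0.066) and in 13 of 16 fits that left out a library (limma adjusted p up to 0.183, value -0.32 to -0.71). That of SUVR2 was lost without low-calcium root replicate 1 or 2 or low-calcium shoot replicate 3 (limma adjusted p up to 0.066). Of the 6 Dicers, 5 were higher in shoot at optimum calcium and Dicer 2a was higher in root (0.79, limma adjusted p 0.0129). Dicer 3b-like did not pass with scaling to the total. The A copy of Dicer 4 (Et_7A_052589), changed from -0.39 to 0.07 with scaling to the total, as did argonaute 4B on 2B (Et_2B_021572), from -0.42 to 0.04.

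**Figure D4:**
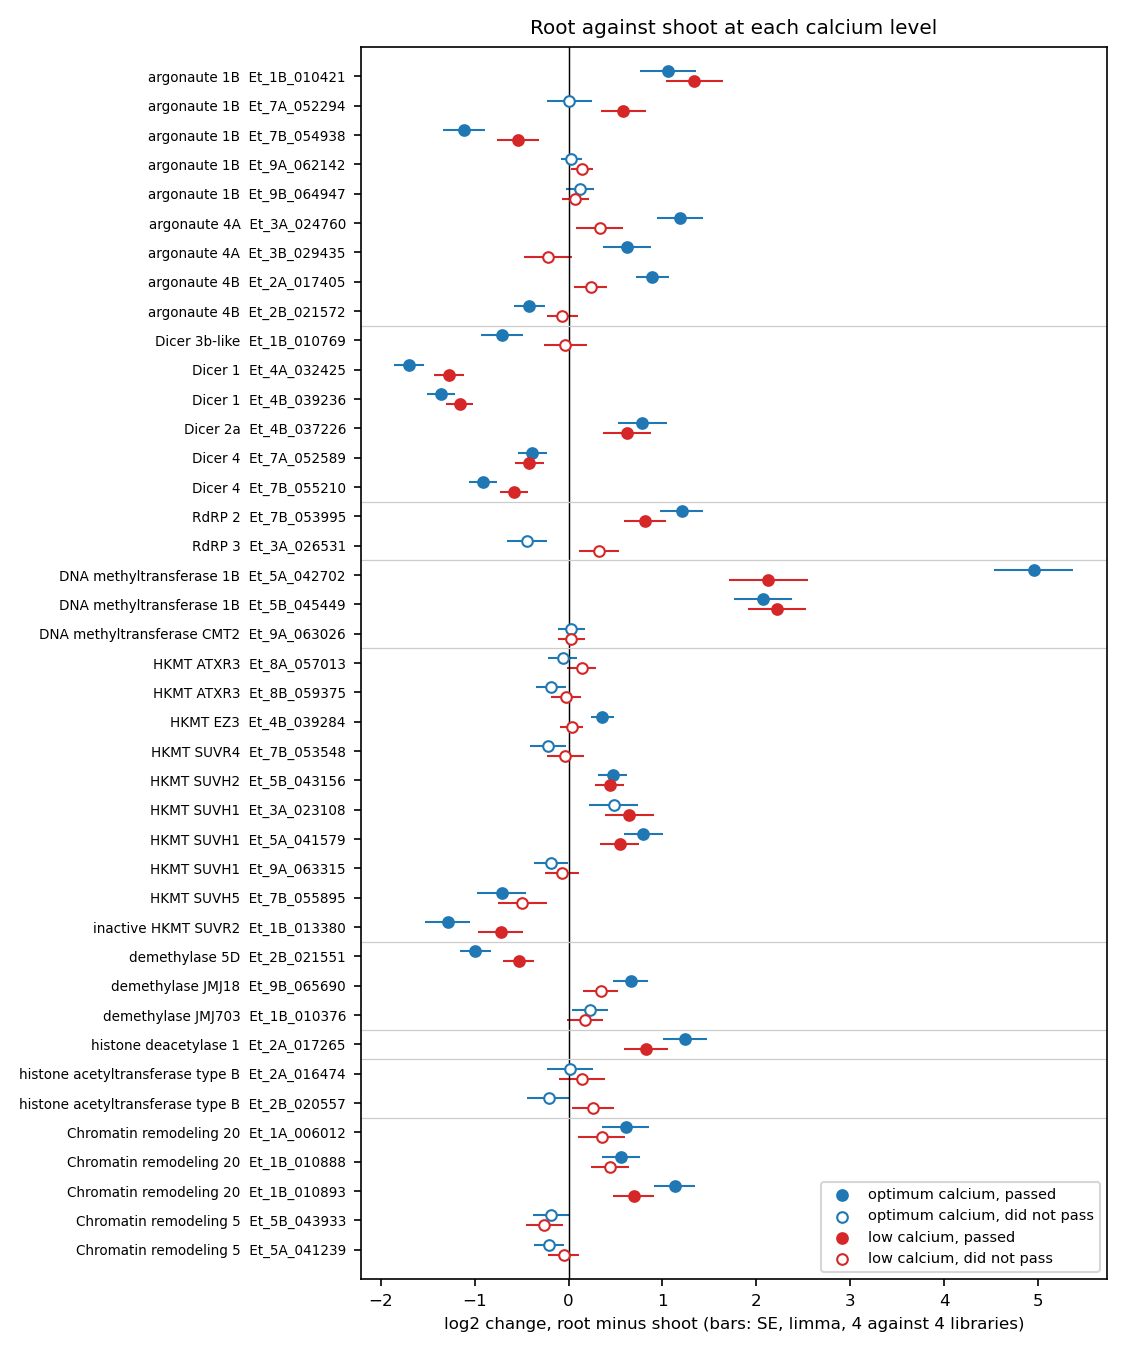
Log2 difference, root minus shoot, of each of the 41 members at optimum and at low calcium, with its standard error from limma (4 against 4 libraries); filled points passed at an adjusted p of 0.05. The DNA methyltransferase 1B copies lie farthest to the right and the Dicer 1 copies farthest to the left at both calcium levels.

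A wider list of 42 further genes, by description, took in other small RNA factors, histones, histone chaperones, Polycomb and methyl-DNA-binding proteins and exoribonucleases. In shoot 4 of the 42 rose, 11 fell and 27 did not pass, 35.7% passing where 39.4% of all genes did. In root none passed, where 8.33% of all genes did. At an unadjusted limma p under 0.05 there were 14 in root, or 33.3% of the list against 28.3% of all genes. The 4 that rose were core histones. The other 2 of the 6 core histone genes listed, H2B.1 (Et_4A_034976, -0.23) and H2B.3 (Et_1A_004789, 0.33), did not pass (limma adjusted p 0.354 and 0.0972). Both genes described as histone H2AXb, a variant known for its part in DNA repair, rose by 3.03 (Et_10A_001745, SE 0.63, limma adjusted p 0.0019) and 2.88 (Et_10B_003815, SE 0.66, limma adjusted p 0.00378). Et_10A_001745 had 2.77, 3.69, 2.73 and 3.12 in optimum-calcium shoot against 6.64, 5.15, 4.35 and 8.28 in low-calcium shoot. Low-calcium replicate 4 was again the highest and replicate 3 the lowest of its group, the same order at the ends as in the A copy of DNA methyltransferase 1B. Without replicate 4 the rises were 2.30 and 2.15 (limma adjusted p 0.00398 and 0.0109). Histone H3.2 (Et_4A_033841) rose by 1.96 (limma adjusted p 0.00479) and H2B.11-like (Et_9A_061993) by 1.10 (limma adjusted p 0.013), the latter not passing without replicate 4.

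The largest falls of the wider list in shoot were in EMBRYONIC FLOWER 2, a Polycomb protein (Et_2B_020623), at -0.95 (SE 0.21, limma adjusted p 0.00279), and in the small RNA 2'-O-methyltransferase (Et_5B_044245), the enzyme that protects small RNAs by adding a methyl group to their end, at -0.89 (SE 0.23, limma adjusted p 0.00675). Methyl-CpG-binding protein 9 (Et_1A_007512) fell by 0.75 (limma adjusted p 0.00371) and exoribonuclease 4 (Et_4B_038184), which degrades uncapped and cleaved transcripts, by 0.61 (limma adjusted p 0.00863). The other exoribonuclease 4 gene listed (Et_5A_041294) changed by 0.08 in shoot without passing (limma adjusted p 0.781). The small RNA methyltransferase had 6.45, 6.43, 6.63 and 6.61 in optimum-calcium shoot and 5.13, 5.44, 6.23 and 5.76 in low-calcium shoot, without overlap. Its root change was 0.09 (limma adjusted p 0.824). With median-ratio size factors 5 of this list rose and 8 fell, with scaling to the total 5 rose and 3 fell, and with voom 3 rose and 3 fell. Over all genes voom gave 1132 rises and 515 falls. Not every fall named here therefore passed with scaling to the total or with voom, nor every core histone rise with voom. There were 6 falls without low-calcium shoot replicate 2 or 4.

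Between organs, 8 genes of the wider list were higher in root and 10 in shoot at optimum calcium, and 10 and 4 under low calcium. These were 42.9% of the list against 66.6% of all genes, and 33.3% against 56.9%. With scaling to the total these became 18 and 2, and 14 and 1. With voom they became 19 and 3, and 14 and 0. At optimum calcium the H2AXb genes were 4.08 and 3.99 higher in root, and at low calcium 2.49 and 2.23. The exoribonuclease 4 gene Et_5A_041294 was 3.004 and 2.64 higher in root, and arginine methyltransferase 6.1 (Et_7A_050786) 1.59 and 2.81. Et_4B_038184, also described as exoribonuclease 4, was lower in root at optimum calcium (-0.60, limma adjusted p 0.00391). Under low calcium its value of -0.19 did not pass (limma adjusted p 0.338). Lower in root were EMBRYONIC FLOWER 2 (-1.17 and -0.84) and methyl-CpG-binding protein 11 (Et_10B_002820, -0.74 and -0.47). The MSI1 homolog (Et_4A_033260, -0.61 and -0.38) and RNA-directed DNA methylation 3 (Et_9B_065191, -0.47 and -0.37) were also lower at both levels. These low-calcium calls rest on the scaling. With scaling to the total only 1 gene of the list passed as lower in root under low calcium, and with voom none did. A bromodomain protein (Et_8B_059411) passed at optimum calcium (-1.02) and not under low calcium (-0.48, limma adjusted p 0.0772), as did the small RNA methyltransferase (-0.96, then 0.01 with a limma adjusted p of 0.962).

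Small RNAs of 21 and 24 nt are the main products of plant Dicers, and their share of the deposited 17 to 35 nt reads was compared as a second readout. In root the 21 nt share was 7.42% ± 1.03 (SD, n = 4, 6.25% to 8.36%) at optimum and 5.87% ± 0.174 (5.64% to 6.04%) at low calcium. The groups did not overlap, and the two-sided exact permutation p was 0.0286, the smallest that 4 against 4 libraries can give, with an adjusted p of 0.114 over 4 tests, which did not pass. The 24 nt share of root was 10.1% ± 1.21 and 8.83% ± 0.235 (n = 4, exact permutation p 0.143, adjusted p 0.286). In shoot the 21 nt share was 6.65% ± 0.853 and 6.46% ± 0.439 (n = 4, exact permutation p 0.686, adjusted p 0.686). As a share of 18 to 26 nt reads the difference was -1.01 percentage points in place of -0.19, with the groups separate (exact permutation p 0.0286, adjusted p 0.0571 over 4 tests). The same denominator changed the 24 nt difference of root from -1.31 to -0.30 percentage points. The 24 nt share of shoot was 11.1% ± 0.982 and 11.9% ± 2.78 (n = 4, exact permutation p 0.629, adjusted p 0.686). After adjustment no difference of either share passed in either organ over either denominator. With 4 libraries per group this cannot decide whether a share changed. The smallest exact permutation p, 0.0286, becomes 0.114 when 1 of the 4 tests reaches it, whatever the size of the difference. Over 18 to 26 nt reads the 21 nt tests of root and shoot both reached it, which gave 0.0571. Differences within the spread given were not detectable either.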

How the data were processed

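The authors deposited 2 blocks of values for 16 libraries, taken to be the same in both by their names: reads of each length from 17 to 35 nt, and, per the file headers, target gene IDs with a log2 value per library. With the deposited log2 values of all 5824 genes turned back to a linear scale and 1 subtracted, each was a whole multiple of 1 step per library for 100% of 93184 values (tolerance 0.1 of a step), so they are log2 of scaled reads plus 1, and whole reads were recovered. The added 1 shrinks the changes of low genes. The sources used here name no aligner, genome build or counting software. Column names were tied to libraries through their tissue letter and number; a further 5634 listed IDs have no values.

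Tests used limma 3.58.1 in R 4.3.3 with an intensity trend, all 16 libraries, 1 coefficient per group and Benjamini-Hochberg adjustment over all genes. The fit was also run on counts simulated with the same dispersion for every gene and group. Spread in the data differed between groups, so that run does not bear on the calls given here. Homeolog pairs were fitted the same way on A minus B differences, and length shares were compared by exact permutation. Python 3.11.15 with pandas 2.3.3, scipy 1.17.1 and matplotlib 3.10.9 did the rest.

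The members and lists were chosen with earlier results of these data known. Named are every Argonaute, Dicer, RNA-dependent RNA polymerase and DNA methyltransferase, then in the other classes every member that passed in a calcium contrast and the 2 with the most reads, the 6 largest and 6 smallest organ differences, and up to 4 genes per direction of the wider list. JMJ18, and EZ3 in shoot, were named after their values were seen. Alternatives were median-ratio size factors, scaling to the total, voom, an offset of 0.1 reads, a filter of 10 reads in 4 libraries, a replicate block, single-tissue fits, a log2 change of at least 1, pairing by description, an 18 to 26 nt denominator and leaving out each library. A filter of a mean of 50 reads, and the wider list under each setting, were added after seeing the data. No gene or protein sequences were used here.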

Additional observations from a re-analysis of the deposited data

Results flagged for a closer look

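Of the 164 sets of 4 libraries tested (41 members in 4 groups), 12 held 1 library far from the other three by Dixon's test, where chance gives about 1 in 20. In low-calcium shoot, replicate 4 was high for RNA-dependent RNA polymerase 2 (Et_7B_053995) at 8.17 against 7.14 to 7.17, and replicate 3 was high for the B copy of Dicer 1 (Et_4B_039236) at 9.48 against 8.95 to 9.02 and for SUVH2 (Et_5B_043156) at 8.11 against 7.84 to 7.88. In optimum-calcium shoot, replicate 4 was low for the A copy of Dicer 1 (Et_4A_032425) at 9.50 against 9.83 to 9.85, and high for RNA-dependent RNA polymerase 3 (Et_3A_026531) at 8.97 against 8.57 to 8.62 and for the A copy of CHROMATIN REMODELING 5 (Et_5A_041239) at 10.09 against 9.86 to 9.87. Replicate 3 of that group was low for argonaute 1B on 9B (Et_9B_064947) at 9.39 against 9.63 to 9.65 and high for CHROMATIN REMODELING 20 on 1A (Et_1A_006012) at 6.34 against 5.69 to 5.79.

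In low-calcium root, replicate 1 was low for histone deacetylase 1 (Et_2A_017265) at 6.37 against 6.68 to 6.74 and for the B copy of argonaute 4A (Et_3B_029435) at 5.79 against 6.48 to 6.56, and replicate 4 was low for the A copy of DNA methyltransferase 1B (Et_5A_042702) at 6.28 against 6.42 to 6.44. In optimum-calcium root, replicate 3 was low for CMT2 (Et_9A_063026) at 7.59 against 7.98 to 8.03. The calcium response of the A copy of DNA methyltransferase 1B (Et_5A_042702) differed between organs by -2.83 (root minus shoot, log2, limma adjusted p 0.00894).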

How the results depend on the processing

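The filter of 10 reads removed no gene and so tested nothing, and the offset of 0.1 reads and the mean of 50 reads moved no count by more than 1.5 times. Falls in shoot numbered 11 as reported, 4 with scaling to the total, 4 with voom and 0 at a log2 change of at least 1. They ran from 6 to 12 when a library was left out. Over all genes these falls numbered 1217 as reported, 476 with scaling to the total and 515 with voom. Among the members, falls in root numbered 0 as reported, 1 with libraries of a single tissue and from 0 to 2 when a library was left out. At optimum calcium the genes higher in shoot numbered 6 with scaling to the total, 6 with voom and 4 at a log2 change of at least 1, which left 7 higher in root. Under low calcium the genes higher in root numbered 18 with voom and 3 at a log2 change of at least 1, and from 6 to 11 when a library was left out. Those higher in shoot numbered 2 with scaling to the total, 2 with voom and 2 at a log2 change of at least 1, and from 4 to 7 when a library was left out. The root minus shoot value at optimum calcium turned to 0.0652 with scaling to the total and 0.0636 with voom for Et_7A_052589, and to 0.0379 and 0.0370 for Et_2B_021572. The cause of these shifts was not tested. The 21 nt share of shoot differed by -1.01 percentage points over 18 to 26 nt reads, with an exact permutation p of 0.0286 (n = 4, adjusted p 0.0571), against -0.19 over 17 to 35 nt reads. The 2 homeolog calls in shoot stayed 2 with each library left out.

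For low- and optimum-calcium libraries of the same replicate number, the correlation of their deviations was 0.03, -0.03, -0.40 and 0.08 in root. In shoot it was 0.24, -0.05, 0.01 and 0.25. The best match of a low-calcium library had its own number for replicate 4 in root and replicates 1 and 4 in shoot, and another number otherwise. Whether the libraries pair was not tested. With the replicate block, 4 members rose and 13 fell in shoot, none passed in root, and 16 and 9 were higher in root and in shoot at optimum calcium, 9 and 6 under low calcium. Depth limits the A copy of DNA methyltransferase 1B most, which had 2 to 4 reads in each optimum-calcium shoot library.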
